A study of Mus musculus with 9 samples.

Results

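The genes described here act in the G2 phase and in mitosis, the stages in which a cell prepares its duplicated chromosomes and divides them between daughter cells. They are 40 listed genes of mouse bone marrow cells, taken by symbol, of which 39 had a transcript cluster of their own among 18797 distinct symbols on the array. A transcript cluster is a set of probes summed per gene, and no gene of the list had several. Cyclin B1 (Ccnb1), the main partner of the mitotic kinase Cdk1, had no cluster under its symbol and was not measured. Bone marrow cells were transduced with 1 of 3 retroviruses, and GFP-positive cells were profiled on 9 arrays. The control was an empty EGFP vector (MIE, 3 arrays), and the test vectors held GATA2 wild type (3 arrays) or GATA2 R396Q (3 arrays). GATA2 binds DNA through zinc fingers and keeps up blood stem and progenitor cells, and R396Q exchanges an arginine for a glutamine. All groups shared the same source, namely female C57BL/6 mice at 8 weeks of age, dosed with 5-fluorouracil, a drug that kills dividing cells, at 150 mg/kg 6 days before harvest. In all groups Lin-Sca+Kit+ cells were taken with magnetic beads, infected 2 times by centrifugation with Polybrene and cultured for 72 h before sorting for GFP. The comparisons ask whether added GATA2, wild type or R396Q, went with other levels of the genes of cell division, and whether both forms differed.

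Expression was forced by a retrovirus on top of the cells' own GATA2, and the species of the inserted sequence was not given in the sources used here. Values are log2 signals after robust multiarray averaging (RMA), so a difference of 1 is 2-fold. The targeted gene was measured first. Gata2 signals were 9.87, 9.67 and 9.65 with empty vector, 11.50, 11.24 and 10.94 with wild type and 10.65, 10.72 and 10.53 with R396Q, with no overlap between groups. R396Q was 0.90 above empty vector (limma adjusted p = 0.0394) and -0.59 from wild type (0.0633, and 0.0222 with the replicate number as a block). The median signal of an array was 6.06 to 6.19, and pairs of arrays within a group correlated at 0.989 to 0.995 across clusters, which are not independent replicates. All 39 mitotic genes lay above the median of all clusters on all 9 arrays, and 33 lay above the upper quartile on all 9. The labels call the cells HSC and the tissue blood, while the protocol describes bone marrow. Of the stem and progenitor markers, Kit was at 12.22 to 12.38 and Cd34 at 12.94 to 13.46 with empty vector. With wild type Kit was at 9.42 to 9.50 and Cd34 at 8.41 to 8.69. With R396Q Kit was at 10.316 to 10.58 and Cd34 at 12.765 to 12.83. Slamf1 went the other way, at 6.76 to 7.31 with empty vector, 10.148 to 11.211 with wild type and 9.54 to 10.93 with R396Q. Procr stayed at 4.98 to 5.34, below the array medians, on all 9 arrays. Ly6a, which encodes Sca-1, had no cluster of its own. RNA came from many sorted cells together, in which fewer cells in division and less RNA per cell cannot be told apart.

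Entry into mitosis is driven by Cdk1 bound to cyclin B, which the phosphatases Cdc25b and Cdc25c switch on. Kinesins and microtubule-binding proteins then build the spindle, kinetochores attach chromosomes to it, and the spindle checkpoint holds back the anaphase-promoting complex until all are attached. Most of these genes are transcribed in a wave late in the cycle. The DREAM complex, with Rbl1 or Rbl2 (p107 and p130), holds them down in resting cells, and the complex of Mybl2 (B-Myb) with MuvB proteins and Foxm1 turns them on, both through a promoter element named the cell cycle genes homology region (CHR), often beside CCAAT boxes bound by NF-Y. Progenitors of the bone marrow divide rapidly, and blood stem cells divide seldom.

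The promoters of 4 of the genes are shown because these genes had the smallest limma adjusted p between wild type and empty vector. Ckap2l, Cdc25b and Top2a were higher with wild type than with empty vector and Bub1 was lower. They are RefSeq sequences of build GRCm38.p6, read 5′ to 3′ on the strand of the gene, from 250 bases before to 30 after the annotated transcript start. Ckap2l spans chr2:129297183-129297462 on the minus strand, Cdc25b chr2:131186698-131186977 on the plus strand, Top2a chr11:99024160-99024439 on the minus strand and Bub1 chr2:127831830-127832109 on the minus strand. Capitals mark, on either strand, the CHR (written TTTGAA or else as the palindrome TTCGAA), the CCAAT box (CCAAT) and the GATA site, which may read AGATAA or, with another last base, AGATAG, or, with another first base, TGATAA or else TGATAG.
Ckap2l: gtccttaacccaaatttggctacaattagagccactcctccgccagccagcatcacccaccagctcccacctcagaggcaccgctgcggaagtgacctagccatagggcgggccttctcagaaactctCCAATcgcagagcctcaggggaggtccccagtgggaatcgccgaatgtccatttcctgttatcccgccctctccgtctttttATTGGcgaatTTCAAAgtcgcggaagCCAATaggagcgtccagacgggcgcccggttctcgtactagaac
Cdc25b: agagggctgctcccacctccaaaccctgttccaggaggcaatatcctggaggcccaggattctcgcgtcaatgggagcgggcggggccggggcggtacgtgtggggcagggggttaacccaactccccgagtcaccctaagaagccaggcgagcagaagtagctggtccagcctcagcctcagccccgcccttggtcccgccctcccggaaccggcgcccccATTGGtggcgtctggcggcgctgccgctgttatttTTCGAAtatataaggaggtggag
Top2a: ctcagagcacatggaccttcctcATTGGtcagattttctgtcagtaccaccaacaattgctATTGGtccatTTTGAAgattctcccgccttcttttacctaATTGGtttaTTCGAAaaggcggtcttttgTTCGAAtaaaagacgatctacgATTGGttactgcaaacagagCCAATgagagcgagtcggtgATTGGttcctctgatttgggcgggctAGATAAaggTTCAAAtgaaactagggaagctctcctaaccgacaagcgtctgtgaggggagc
Bub1: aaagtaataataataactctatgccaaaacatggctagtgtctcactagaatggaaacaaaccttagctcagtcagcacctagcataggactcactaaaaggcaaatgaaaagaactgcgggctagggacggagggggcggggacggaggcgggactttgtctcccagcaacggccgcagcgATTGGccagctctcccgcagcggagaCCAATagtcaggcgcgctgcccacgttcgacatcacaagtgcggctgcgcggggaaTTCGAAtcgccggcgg
All 4 stretches hold a CHR and a CCAAT box, also Bub1, which differed in the other direction. Top2a has 4 CHR and 6 CCAAT boxes and is the only one of the 4 with a GATA site. Kif11 and Smc2, which also passed the test, are not shown, and Smc2 holds a GATA site too.

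Over windows of 300 bases (250 before to 50 after the start), the RefSeq table listed 33 of the 40 genes, with the first promoter taken where there were several (Ect2 and Prc1). A CHR was found in 27 of 33 (81.8%) against 19.4% of 27025 genes, and a CCAAT box in 27 of 33 (81.8%) against 37.9%. Both occurred together in 24 of 33 (72.7%) against 7.70% of all genes. GATA sites were found in 8 of 33 (24.2%) against 30.2% of all genes. Those 8 genes were Cenpa, Nuf2, Kif2c, Nusap1, Hmmr, Ect2, Top2a and Smc2. A further 94 mitotic genes outside the 40 held a CHR in 47.9%, a CCAAT box in 56.4% and a GATA site in 10.6%, and 26 genes of DNA replication in 23.1%, 69.2% and 15.4%. Matches of different motifs were counted separately also where they touch. A match to these letters is not a shown binding site.

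**Figure D1:**
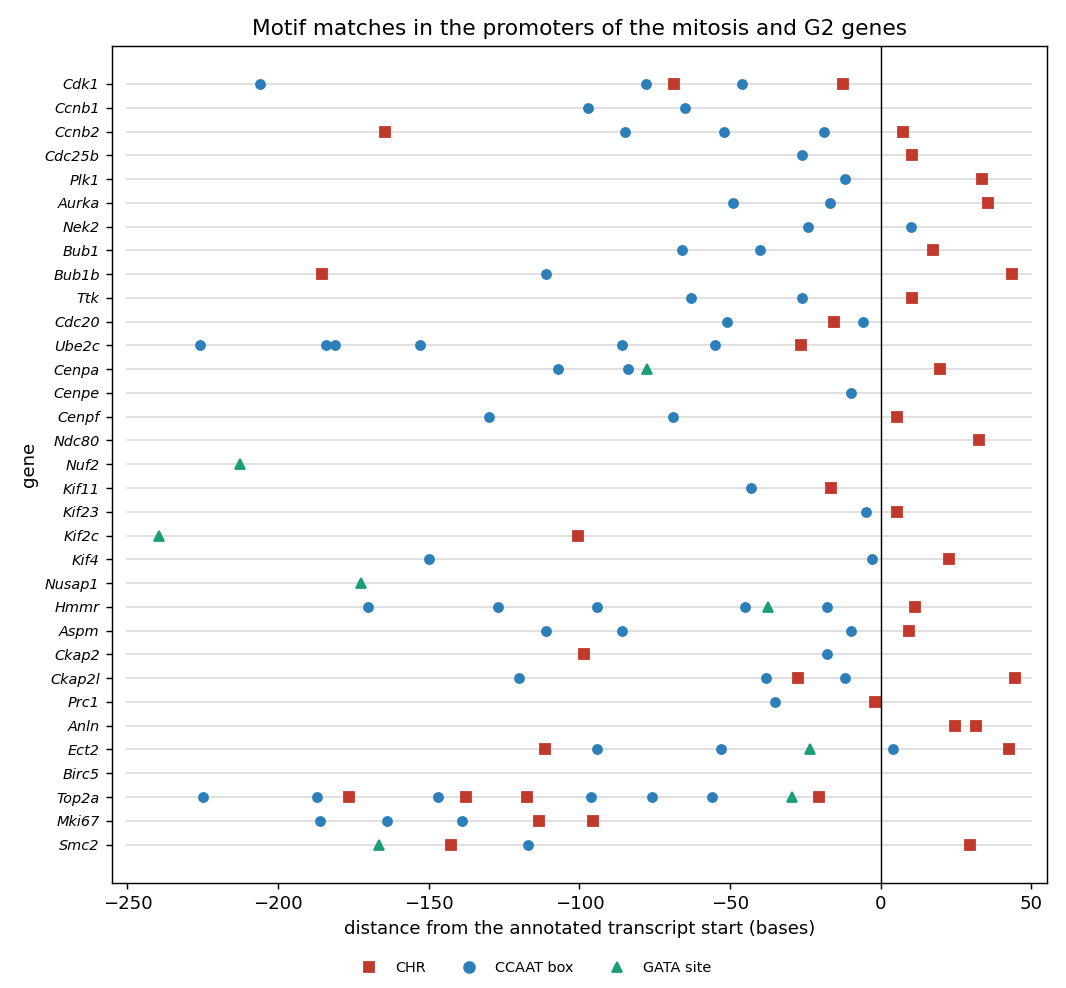
Motif matches in the promoters of the 33 listed genes, with the distance from the annotated transcript start in bases on the horizontal axis and 1 line per gene. Squares are CHR matches, circles CCAAT boxes and triangles GATA sites on either strand, and 24 of the 27 genes with a CHR have 1 or more within 50 bases of the start.

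With GATA2 wild type, a few genes of mitotic entry, spindle assembly and chromosome structure were higher than with empty vector. Most of the 39 genes did not pass the test without the block described below. Of the 39 genes 5 rose, namely Ckap2l, Cdc25b, Kif11, Top2a and Smc2 (4.64% of all clusters rose), and Bub1 fell (4.35% of all clusters fell). The largest change was 2.74-fold, and 30 of the 39 genes differed by less than 0.5 on the log2 scale. Their median absolute change was 0.28, against 0.12 over all clusters. An unadjusted p under 0.05 was reached by 12 genes (limma, 30.8%, against 22.1% of all clusters). In all, 6 of 39 passed the test (15.4%), where 8.99% of all 21072 clusters did (limma, Benjamini-Hochberg adjusted p under 0.05 over all clusters). Arrays with the same replicate number shifted together across groups, so the number was also fitted as a block, that is, each comparison was made within numbers. With the replicate block 16 of 39 passed (41.0%, against 17.4% of all clusters), 13 higher (8.00% of all clusters were) and 3 lower (9.41%). The groups did not overlap for 13 genes (33.3%, against 22.6%), of which 11 were higher (10.8% of all clusters were) and 2 lower (11.8%). The median change of the 39 genes was 0.14, where that of all clusters was -0.01, and 28 of 39 changes were above 0, against 44.8% of all clusters. Within replicate numbers 1, 2 and 3 the medians were 0.10, 0.26 and 0.08, and 20 genes were higher and 6 lower within all 3 numbers, where 20.0% and 23.7% of all clusters were. Without empty vector 2 the median was 0.07, 24 of 39 were above 0 and 3 genes passed, and 3 also passed without R396Q 1 or without R396Q 2, which enter through the shared estimate of the spread. For 29 of 39 genes the 95% confidence interval lay within 1 log2 unit of 0 (36 with the replicate block), and its median reach to each side of the change was 0.38 (0.20 with the block).

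**Figure D2:**
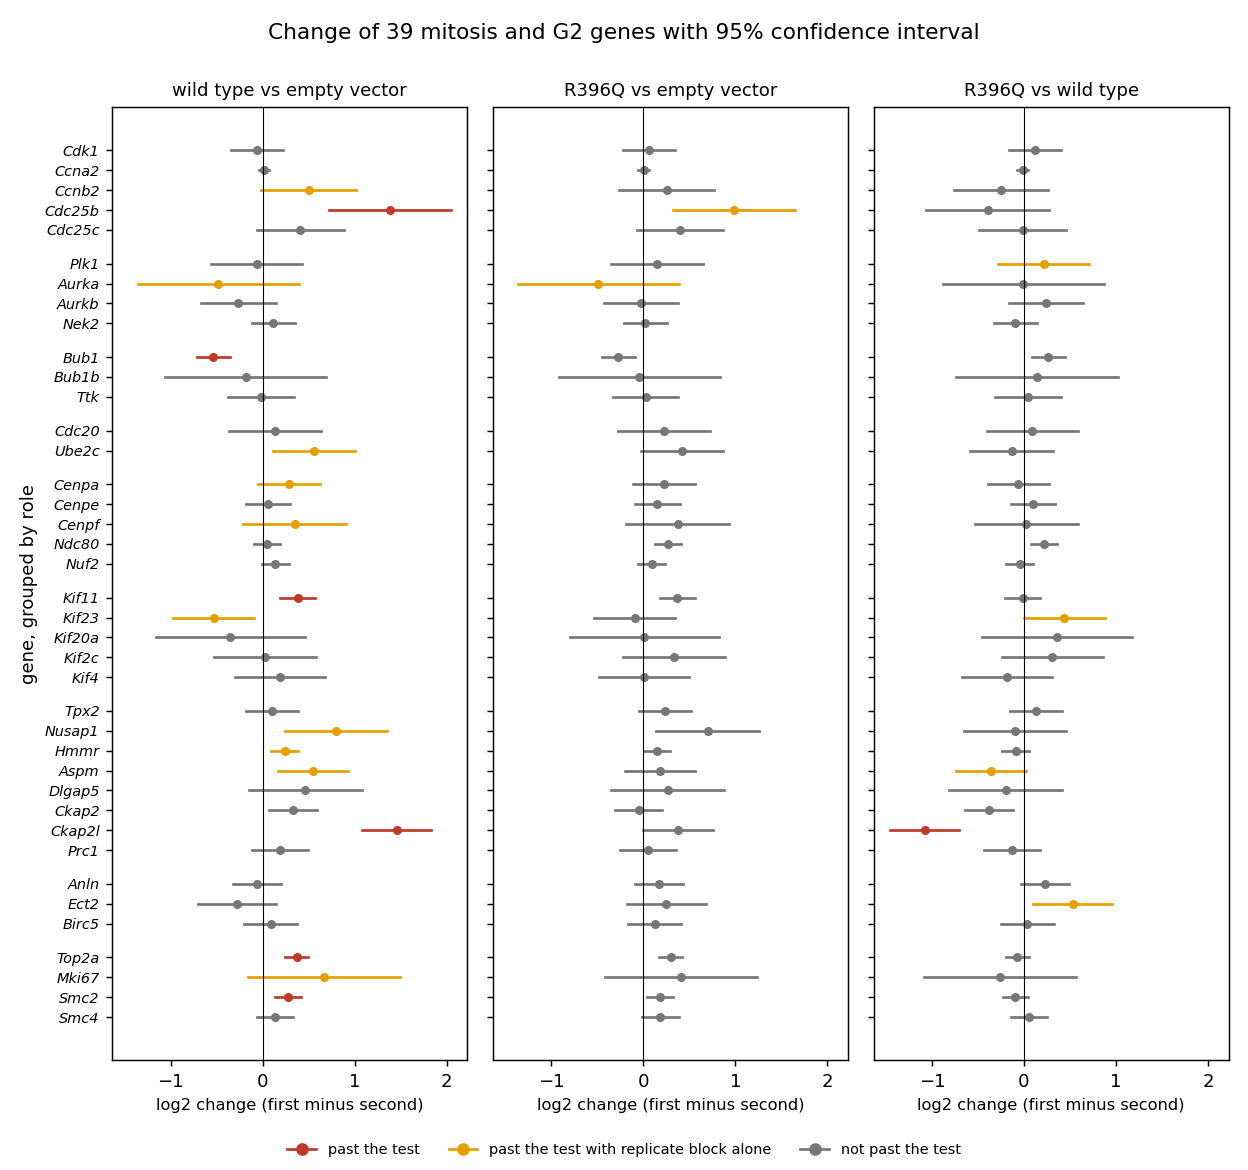
Log2 change of each of the 39 genes with its 95% confidence interval from limma (horizontal axis, first group minus second), for 3 comparisons of 3 arrays per group. Red marks genes past the test, orange those past it with the replicate block alone and gray the rest, and Ckap2l and Cdc25b lie farthest to the right in the comparison of wild type with empty vector.

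Among the genes of Cdk1 and its cyclins, Cdc25b was the one that changed in the fit without the block. Cdc25b, the phosphatase that starts Cdk1 activation at the centrosome, had signals of 6.91, 6.66 and 7.37 with empty vector, 8.57, 7.82 and 8.71 with wild type and 7.82, 7.87 and 8.23 with R396Q. All arrays of both GATA2 forms lay above all empty vector arrays, and both forms overlapped each other. Wild type was 2.61-fold above empty vector (log2 change 1.38, SE 0.28, limma adjusted p = 0.0268). R396Q was 0.99 above empty vector and missed the threshold (adjusted p = 0.201), but passed with the replicate block (0.0460). Between R396Q and wild type the difference was -0.40, with an interval of -1.06 to 0.27, which does not show that they are alike. Leaving out any 1 of 6 arrays (empty vector 1 and 2, wild type 1 and 3, R396Q 1 and 2) ended the wild type call (adjusted p up to 0.0899), as did fitting only the groups compared (0.0948).

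Ccnb2, cyclin B2, had signals of 13.35, 12.83 and 12.66 with empty vector, 13.76, 13.30 and 13.28 with wild type and 13.44, 13.11 and 13.06 with R396Q. Within each number wild type was the highest and empty vector the lowest, although the groups overlapped. The change with wild type was 0.50 (SE 0.22, limma adjusted p = 0.237), and passed with the replicate block (0.00826). Cdk1 itself was at 12.19, 11.72 and 11.94 with empty vector, 11.94, 11.82 and 11.91 with wild type and 12.14, 11.94 and 11.95 with R396Q. Its change with wild type was -0.06, with an interval of -0.34 to 0.22, so a 2-fold change lies outside the interval. Ccna2, cyclin A2, sat at 13.45 on 7 arrays and reached 13.50 on wild type 3, and its narrow interval rests on these tied values. Cdc25c, the second phosphatase, was 0.41 higher with wild type and 0.40 higher with R396Q and did not pass.

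None of the 4 mitotic kinases changed in the fit without the block. Aurka, Aurora A of the centrosome and spindle poles, had signals of 11.43, 10.93 and 11.86 with empty vector, 10.77, 10.51 and 11.49 with wild type and 10.97, 10.40 and 11.38 with R396Q. Within each number empty vector was the highest, while across numbers the groups overlapped widely. Its change was -0.48 with wild type and -0.49 with R396Q (SE 0.37 for both, limma adjusted p = 0.514 and 0.671), and both passed with the replicate block (0.0129 and 0.0410). Plk1, a kinase of mitotic entry and of the kinetochore, had signals of 14.83, 14.43 and 14.98 with empty vector, 14.86, 14.35 and 14.83 with wild type and 15.05, 14.60 and 15.03 with R396Q. It differed by 0.21 between R396Q and wild type (limma adjusted p = 0.706, and 0.0421 with the replicate block). Aurkb, the kinase of the chromosomal passenger complex, was 0.26 lower with wild type and Nek2, a centrosome kinase, 0.11 higher, and neither passed with or without the block.

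All 3 checkpoint genes had a change below 0 with wild type (2 of 3 after quantile normalization), and 1 of them, Bub1, fell. Bub1, which marks the inner centromere and recruits other checkpoint proteins, had signals of 11.44, 11.52 and 11.47 with empty vector, 11.01, 10.76 and 11.05 with wild type and 11.18, 11.19 and 11.26 with R396Q. The 3 groups did not overlap at any point, with R396Q between the others. Wild type was 1.45-fold below empty vector (-0.54, SE 0.08, limma adjusted p = 0.00703), a call kept without any 1 array. R396Q was -0.27 from empty vector (adjusted p = 0.193) and 0.27 above wild type (adjusted p = 0.110), and missed the threshold against both. Bub1b, the checkpoint protein BubR1, ran from 10.00 to 11.23 within empty vector and differed by -0.18 with wild type, and Ttk, the kinase Mps1, differed by -0.02. Neither passed in any comparison.

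Of the partners of the anaphase-promoting complex, Ube2c, the enzyme that loads its ubiquitin, had signals of 13.24, 12.59 and 12.72 with empty vector, 13.57, 13.27 and 13.38 with wild type and 13.49, 13.25 and 13.07 with R396Q. Every wild type array lay above every empty vector array. The change of 0.56 (SE 0.19, limma adjusted p = 0.138) passed with the replicate block (0.0216). Cdc20, the activator of the complex that the checkpoint holds back, differed by 0.14 with wild type and 0.23 with R396Q and did not pass.

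The 5 genes of the centromere and kinetochore all had changes above 0 with wild type and with R396Q, and none passed without the block. A further 24 measured genes of this role, outside the list, were less uniform. With wild type 14 of these 24 were above 0 and 10 below, and with R396Q 18 and 6. Cenpa, the histone variant that marks centromeres, had signals of 11.61, 11.26 and 11.27 with empty vector, 11.91, 11.54 and 11.54 with wild type and 11.74, 11.58 and 11.49 with R396Q. Cenpf, a protein of the outer kinetochore, had signals of 9.41, 9.28 and 8.87 with empty vector, 9.81, 9.59 and 9.20 with wild type and 9.95, 9.44 and 9.30 with R396Q. For both genes empty vector was the lowest within each number. The changes with wild type were 0.28 for Cenpa and 0.35 for Cenpf, which passed with the replicate block (limma adjusted p = 0.0162 and 0.0416). Ndc80, which binds microtubules at the kinetochore, was 0.27 higher with R396Q than with empty vector (limma adjusted p = 0.110) and all 3 R396Q arrays, at 11.22 to 11.36, lay above the other 6. Nuf2, its partner in the same complex, had changes of 0.14 with wild type and 0.09 with R396Q, and Cenpe, a kinesin that carries chromosomes to the spindle equator, of 0.06 and 0.15. Neither passed in any comparison.

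Among the kinesins Kif11 rose. Kif11 (Eg5), the motor that pushes spindle poles apart, had signals of 12.84, 12.93 and 12.99 with empty vector, 13.21, 13.48 and 13.21 with wild type and 13.30, 13.24 and 13.33 with R396Q. Both GATA2 forms lay above empty vector on all arrays and overlapped each other. Wild type was 1.30-fold above empty vector (0.38, SE 0.08, limma adjusted p = 0.0307), and R396Q was 0.37 above it (adjusted p = 0.0983). The wild type call was lost without any 1 of the 6 empty vector or R396Q arrays (adjusted p up to 0.0930), with only the groups compared (0.112), with median subtraction (0.0648) and with quantile normalization (0.141). Kif23 (Mklp1), a motor of the midzone between separating chromosomes, had signals of 11.75, 12.10 and 11.54 with empty vector, 11.35, 11.47 and 10.98 with wild type and 11.76, 11.85 and 11.50 with R396Q. Wild type lay below both other groups on all arrays. Its change against empty vector was -0.53 (limma adjusted p = 0.149), and R396Q was 0.44 above wild type (adjusted p = 0.288). Both differences passed with the replicate block (0.00655 and 0.0142). Kif20a, Kif2c and Kif4 did not pass in any comparison.

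The 8 spindle microtubule proteins all had changes above 0 with wild type, with a median of 0.40. Ckap2l, a protein of spindle poles and midzone, had signals of 9.75, 9.22 and 9.33 with empty vector, 10.95, 11.06 and 10.66 with wild type and 9.87, 9.87 and 9.70 with R396Q. All wild type arrays stood above all others, and R396Q overlapped empty vector. Wild type was 2.74-fold above empty vector (1.46, SE 0.16, limma adjusted p = 0.0027). R396Q was 2.11-fold below wild type (-1.08, adjusted p = 0.0115) and 0.38 above empty vector (adjusted p = 0.416, interval -0.000624 to 0.75). Both Ckap2l calls were kept without any 1 array and with the replicate block (0.00361 and 0.00996).

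A further 3 spindle proteins passed with the block alone. Aspm, which works at spindle poles, had signals of 10.09, 10.01 and 9.76 with empty vector, 10.72, 10.59 and 10.18 with wild type and 10.25, 10.18 and 9.97 with R396Q. Within each number the order was empty vector, R396Q, wild type. Its change with wild type was 0.54 (limma adjusted p = 0.0934, and 0.00528 with the replicate block), and R396Q was -0.36 from wild type (0.308, and 0.0199 with the block). Nusap1, which bundles microtubules near chromosomes, had signals of 12.06, 11.18 and 11.84 with empty vector, 12.74, 12.29 and 12.43 with wild type and 12.58, 12.28 and 12.31 with R396Q. All arrays of both forms lay above empty vector. The changes were 0.79 with wild type (limma adjusted p = 0.0932, and 0.0191 with the replicate block) and 0.70 with R396Q (0.288 and 0.0747). Hmmr, a partner of Tpx2 at spindle poles, had signals of 12.52, 12.44 and 12.44 with empty vector, 12.84, 12.67 and 12.61 with wild type and 12.63, 12.61 and 12.61 with R396Q. It differed by 0.24 with wild type (limma adjusted p = 0.0565, and 0.0261 with the replicate block). Tpx2, Dlgap5, Ckap2 and Prc1 had changes of 0.10 to 0.46 with wild type and did not pass.

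None of the 3 genes of cytokinesis and the passenger complex changed without the block. Ect2, which switches on the small GTPase RhoA at the cleavage site, had signals of 11.31, 11.00 and 11.59 with empty vector, 11.17, 10.77 and 11.12 with wild type and 11.66, 11.34 and 11.65 with R396Q. Every R396Q array lay above every wild type array. The difference of 0.53 (SE 0.18, limma adjusted p = 0.178) passed with the replicate block (0.0157). Anln, which scaffolds the contractile ring, was 0.23 higher with R396Q than with wild type, again with no overlap, and did not pass. Birc5, survivin of the passenger complex, differed by 0.04.

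Top2a and Smc2, which shape mitotic chromosomes, rose with wild type. Top2a, the topoisomerase that untangles sister DNA, had signals of 13.51, 13.39 and 13.40 with empty vector, 13.82, 13.88 and 13.71 with wild type and 13.71, 13.72 and 13.76 with R396Q. All arrays of both forms lay above all empty vector arrays. Wild type was 1.29-fold higher (0.37, SE 0.05, limma adjusted p = 0.00713), a call kept without any 1 array, and R396Q was 0.30 higher and missed the threshold (adjusted p = 0.0537). Smc2, a core subunit of condensin, had signals of 12.16, 12.26 and 12.32 with empty vector, 12.62, 12.53 and 12.43 with wild type and 12.44, 12.43 and 12.43 with R396Q. Its change of 0.28 with wild type (SE 0.06, limma adjusted p = 0.0303) did not pass when any 1 of 7 arrays, other than empty vector 3 and wild type 3, was left out (adjusted p up to 0.0830), nor with only the groups compared (0.116), the trend and robust options (0.0547), median subtraction (0.0737), quantile normalization (0.0821) or the dimmest 50% of clusters dropped (0.0613). Mki67, the marker Ki-67 that coats mitotic chromosomes, had signals of 15.84, 16.11 and 15.01 with empty vector, 16.59, 16.53 and 15.84 with wild type and 16.25, 16.28 and 15.65 with R396Q. Number 3 was the lowest in each group, and within each number wild type was the highest. The change of 0.67 with wild type (SE 0.35, limma adjusted p = 0.328) passed with the replicate block (0.0132). Smc4, the partner of Smc2, differed by 0.13 and did not pass.

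**Figure D3:**
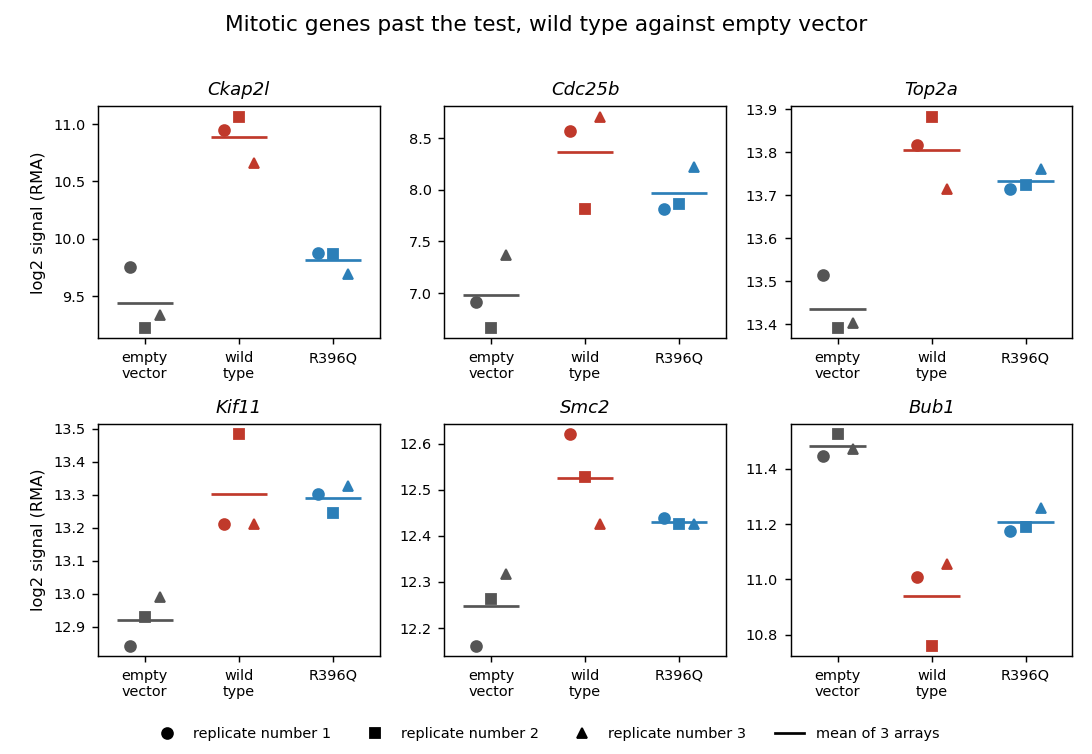
Log2 signal on each of the 9 arrays for the 6 genes past the test between wild type and empty vector, by group, with the marker shape giving the replicate number and the line the mean of 3 arrays. R396Q overlaps empty vector for Ckap2l, overlaps wild type for Cdc25b, Kif11, Top2a and Smc2, and lies between both for Bub1.

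With R396Q, no gene of the 39 passed against empty vector (limma, 0 of 39, against 1.23% of all clusters), while 8 reached an unadjusted p below 0.05 (20.5%, against 12.1% of all clusters). With the replicate block 2 passed (5.13%, against 3.00% of all clusters), Cdc25b higher (1.66% of all clusters were) and Aurka lower (1.34%). The groups did not overlap for 9 genes (23.1%, against 14.1% of all clusters), of which 8 were higher (6.98% of all clusters were) and 1 lower (7.10%). The direction was more uniform than the calls, with 33 of 39 changes above 0, where 44.4% of all clusters were, and a median of 0.18, where all clusters had -0.01. After quantile normalization 29 of 39 changes were above 0, and after median subtraction 34. Within replicate numbers 1, 2 and 3 the medians were 0.09, 0.18 and 0.12, and 24 genes were higher and 2 lower within all 3 numbers, where 17.0% and 18.9% of all clusters were. With the replicate block and 1 number left out the median was 0.15 to 0.19. Without empty vector 2 alone, which leaves its number unpaired, 24 of 39 changes were above 0 and the median was 0.10. On that array the 39 genes had a median deviation of -0.27 from their own means over 9 arrays, where the other 8 arrays lay at -0.04 to 0.10. Without wild type 2, which enters through the shared spread, 2 genes passed, Bub1 lower and Kif11 higher. The comparisons with empty vector share these 3 control arrays. For 35 of 39 genes the interval of the change lay within 1 log2 unit of 0.

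Between R396Q and wild type 1 of 39 genes passed (2.56%, against 5.75% of all clusters), namely Ckap2l, which was lower with R396Q (3.08% of all clusters were). Without wild type 3 Ckap2 (cytoskeleton associated protein 2) was a further call in the same direction. With the replicate block 5 passed (12.8%, against 13.1% of all clusters): Plk1, Kif23 and Ect2 were higher with R396Q (7.10% of all clusters were) and Aspm and Ckap2l lower (5.95%). The groups did not overlap for 8 genes (20.5%, against 20.6% of all clusters), 6 higher (11.0% of all clusters) and 2 lower (9.59%). Changes above 0 numbered 18 and those below 21, and the median was -0.01, where that of all clusters was 0. By role, 7 of 8 spindle microtubule proteins were below 0, while all 3 genes of cytokinesis and all 3 checkpoint genes were above 0 (2 of 3 in both after quantile normalization).

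The replicate number accounted for more of the spread of these genes than the vector did. Over the 9 arrays, the median share of a gene's variance that lay between replicate numbers was 49.6%, that between groups 39.7% and the remainder 10.5%, while over 20845 clusters with any spread the medians were 28.9%, 33.3% and 25.9%. More variance lay between numbers than between groups for 22 of 39 genes (56.4%), against 43.8% of all clusters. Number 2 was the lowest in all 3 groups for 14 of 39 genes (35.9%), against 9.14% of all clusters, and number 1 was the lowest for none (5.79% of all clusters). Aurka, Bub1b, Kif20a, Kif2c and Kif4 had the order 2, 1, 3 from lowest to highest in each group. In Kif20a, a motor of the midzone, the signals were 11.61, 11.23 and 12.18 with empty vector, 11.48, 10.81 and 11.67 with wild type and 11.57, 11.33 and 12.14 with R396Q, so that 78.3% of its variance lay between numbers and 17.1% between groups. Ckap2l stood at the other end, with 92.9% between groups and 3.50% between numbers. Number 3 was the lowest in all 3 groups for 6 genes (15.4%, against 8.45% of all clusters), namely Ccnb2, Cenpf, Kif23, Aspm, Mki67 and Smc4. The labels do not say what arrays of 1 number share.

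**Figure D4:**
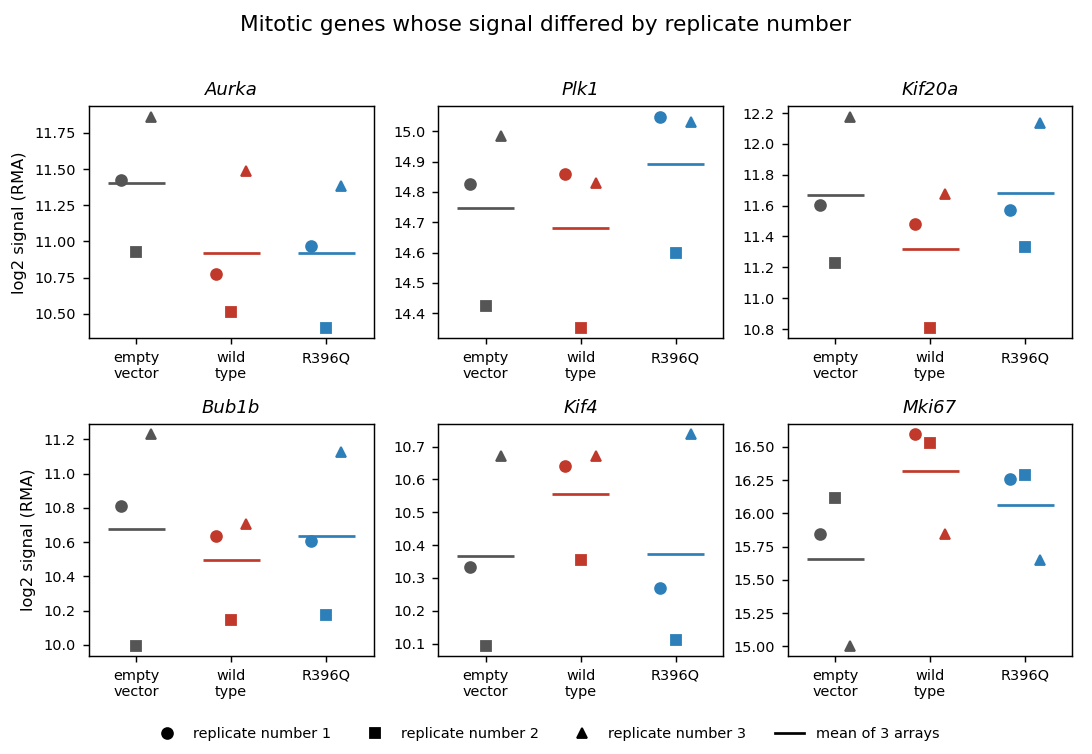
Log2 signal on each of the 9 arrays for 6 mitotic genes, by group, with circles for replicate number 1, squares for 2 and triangles for 3, and lines at the mean of 3 arrays. Squares are the lowest points of each group for Aurka, Plk1, Kif20a, Bub1b and Kif4, and triangles for Mki67.

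Few mitotic genes outside the 40 passed the test. Of 102 measured genes from a list of 109, 4 rose and 2 fell with wild type (5.88%, against 8.99% of all clusters), with a median of -0.02, and 8 rose and 6 fell with the replicate block (13.7%, against 17.4%). With R396Q none passed against empty vector (limma), 9 reached an unadjusted p under 0.05 (8.82%, against 12.1% of all clusters) and 2 passed with the block (1.96%, against 3.00%). Against wild type 2 were higher and 3 lower (4.90%, against 5.75% of all clusters), and 10 and 4 with the block (13.7%, against 13.1%). Whether their share differs from that of the 39 genes was not tested. With wild type 3 of them passed without any 1 of 5 arrays (empty vector 1 and 2, wild type 1, R396Q 1 and 3), and between R396Q and wild type 4 passed without empty vector 1 and 0 to 3 without any 1 of the other 8 arrays. Psrc1, a spindle protein that regulates microtubule ends, had signals of 7.07, 7.55 and 7.84 with empty vector, 9.19, 8.57 and 9.18 with wild type and 7.69, 7.68 and 7.90 with R396Q. It rose 2.81-fold with wild type (limma adjusted p = 0.0106) and was 2.34-fold lower on the R396Q than on the wild type arrays (adjusted p = 0.0302), as Ckap2l was. The second call was lost without any 1 of 6 arrays (empty vector 2, wild type 1 and 3, and each of R396Q). Cep55, which acts at the last cut between daughter cells, had signals of 11.20, 10.35 and 10.60 with empty vector, 9.88, 9.70 and 9.65 with wild type and 11.03, 10.73 and 10.45 with R396Q. It fell by 0.97 on the log2 scale with wild type (limma adjusted p = 0.0499), a call lost when any 1 of 8 arrays, other than empty vector 2, was left out. Ncaph, a condensin subunit like Smc2, rose by 0.43 (adjusted p = 0.0318), a call lost without any 1 of 6 arrays, those of empty vector and R396Q. The 7 further checkpoint genes, such as Mad2l1 and Bub3, were all below 0 with wild type, from -0.83 to -0.03, and none passed without the block. Between R396Q and wild type the anaphase-promoting subunit Cdc27 and the cohesin subunit Stag1 were 0.36 higher each and the cohesin release factor Wapl 0.15 lower (limma adjusted p = 0.0472, 0.0394 and 0.0468), calls lost without any 1 array other than wild type 2 for Cdc27, empty vector 1 and 2 for Stag1 and R396Q 3 for Wapl. All 3 were also lost with the trend and robust options (0.0622, 0.0567 and 0.205) and with quantile normalization (0.249, 0.152 and 0.130).

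Regulators of cell cycle genes, of which some act on CHR promoters, changed in both directions with wild type, and their part in the mitotic genes was not tested. Mybl2, the activator, had signals of 12.23, 12.06 and 12.05 with empty vector, 11.59, 11.24 and 11.70 with wild type and 11.99, 11.83 and 12.06 with R396Q. Wild type lay below both other groups on all arrays, and Mybl2 fell by 0.60 on the log2 scale against empty vector (limma adjusted p = 0.0294), a call lost without any 1 of 5 arrays (each of empty vector, wild type 1 and R396Q 1). Rbl2, the p130 subunit of DREAM, had signals of 10.40, 10.46 and 10.63 with empty vector, 11.20, 10.90 and 10.85 with wild type and 10.85, 10.85 and 10.98 with R396Q. It rose by 0.49 with wild type (limma adjusted p = 0.0338), a call kept only when the array left out was empty vector 3 or wild type 3. E2f8, a repressor of genes of the cell cycle, had signals of 12.39, 12.23 and 12.01 with empty vector, 13.27, 13.24 and 12.99 with wild type and 12.57, 12.57 and 12.26 with R396Q. E2f8 rose 1.94-fold with wild type (limma adjusted p = 0.00669, kept without any 1 array) and was 1.62-fold lower on the R396Q arrays than on those of wild type (adjusted p = 0.0287, lost without empty vector 2, wild type 1 or 2, or any 1 of the R396Q arrays). Of 9 measured regulators these 3 changed with wild type without the block (33.3%, against 8.99% of all clusters), and 4 with it (44.4%, against 17.4%). With the replicate block E2f4, a repressor partner of Rbl2, also passed and was lower (limma adjusted p = 0.0415), E2f8 was higher with R396Q than with empty vector (0.0406), and Mybl2 was higher and E2f8 lower with R396Q than with wild type (0.0373 and 0.00181). Foxm1 and Lin52 shared a cluster with another gene and were not used.

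Cdkn1a (p21), an inhibitor of cyclin-dependent kinases, had signals of 13.91, 13.66 and 14.17 with empty vector, 15.49, 15.31 and 15.81 with wild type and 14.38, 14.64 and 14.66 with R396Q. The 3 groups did not overlap. Cdkn1a rose 3.07-fold with wild type (limma adjusted p = 0.00254), was 1.56-fold above empty vector with R396Q (adjusted p = 0.176) and 1.97-fold lower with R396Q than it was with wild type (adjusted p = 0.0229). Of 7 inhibitors only Cdkn1a passed with wild type without the block (14.3%, against 8.99% of all clusters), and 2 passed with it (28.6%, against 17.4%). The difference between R396Q and wild type did not pass without any 1 of 5 arrays (wild type 1 and 3, and each of R396Q). Of 30 genes of DNA replication, the stage before G2, 1 fell with wild type (3.33%, against 4.35% of all clusters). It was Chaf1a (by 0.25, limma adjusted p = 0.0498, 0.0653 with the block), a call lost without any 1 array other than empty vector 3. The call was also lost in 8 of the 10 other settings that keep all arrays, the block among them (limma adjusted p up to 0.158). The median change of the 30 genes was -0.21, where that of all clusters was -0.01. Changes above 0 numbered 9 of 30, against 44.8% of all clusters, and those below 21. With the block 5 passed (16.7%, against 17.4% of all clusters), 1 higher (8.00% of all clusters were) and 4 lower (9.41%). With R396Q 1 of the 30 passed against empty vector (3.33%, against 1.23% of all clusters), and the median change was -0.06. Changes above 0 numbered 9, against 44.4% of all clusters, and those below 21. Within all 3 numbers 2 were higher and 8 lower, where 17.0% and 18.9% of all clusters were. Tyms, which makes thymidylate and is the target of 5-fluorouracil, was the one replication gene to rise with R396Q, with signals of 12.79, 12.59 and 12.44 with empty vector, 12.96, 12.92 and 12.82 with wild type and 13.38, 13.42 and 13.28 with R396Q. It was 1.68-fold above empty vector (limma adjusted p = 0.0170) and 1.37-fold above wild type (adjusted p = 0.0352). The first call was lost without any 1 of the R396Q arrays, and the second with any array left out other than empty vector 1 or 3, and with quantile normalization (0.0929).

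**Figure D5:**
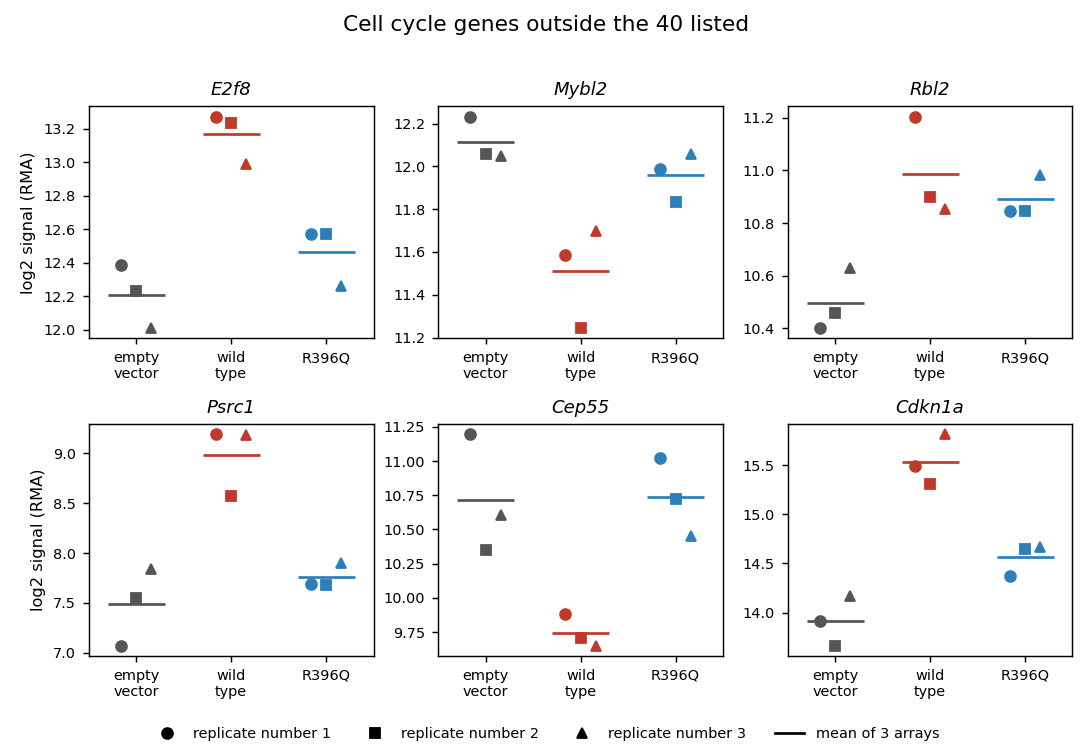
Log2 signal on each of the 9 arrays for 6 genes of the cell cycle outside the 40, by group, with the marker shape giving the replicate number and the line the mean of 3 arrays. E2f8, Rbl2, Psrc1 and Cdkn1a are higher with wild type than with empty vector and Mybl2 and Cep55 lower, and the R396Q arrays overlap empty vector for E2f8, Mybl2, Psrc1 and Cep55 and lie above it for Rbl2 and Cdkn1a.

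Markers of blood cell types moved with the same comparisons. Of 62 measured markers 33 passed for wild type against empty vector (53.2%, against 8.99% of all clusters), 5 for R396Q against empty vector (8.06%, against 1.23%) and 23 for R396Q against wild type (37.1%, against 5.75%), and 42, 10 and 31, in this order, with the replicate block. The mean log2 signal over 9 erythroid markers was 6.21 to 6.57 with empty vector, 8.77 to 9.64 with wild type and 6.28 to 6.59 with R396Q, and 6 of the 9 rose with wild type. Over 8 megakaryocyte markers it was 7.84 to 8.36, 10.87 to 11.46 and 7.88 to 8.71, and 7 of 8 rose. Over 10 mast cell and basophil markers it was 8.95 to 10.53, 11.74 to 13.04 and 10.12 to 10.93, and 7 rose. Neutrophil markers went the other way, at 11.87 to 14.64, 7.58 to 10.28 and 10.46 to 13.76, with 5 of 10 lower, and so did those of monocytes and macrophages, at 8.58 to 9.78, 6.72 to 7.57 and 7.25 to 8.06, with 4 of 10 lower. The 8 stem and progenitor markers had 8.48 to 8.76, 7.70 to 7.85 and 8.19 to 8.72, with 1 higher and 3 lower. With the block the counts for wild type against empty vector were 9 lower for neutrophils, 6 lower for monocytes and macrophages, 8 higher for mast cells and basophils, and 2 higher and 4 lower for stem and progenitor markers, and those of erythroid and megakaryocyte markers were 6 and 7 as before. Between R396Q and wild type without the block, 5 erythroid, 6 megakaryocyte and 5 mast cell and basophil markers were lower with R396Q and 3 neutrophil markers higher (8 with the block). Against empty vector none of the erythroid, megakaryocyte or mast cell and basophil markers passed with R396Q (limma, with 0, 2 and 4 at an unadjusted p under 0.05, and 0, 1 and 1 past the test with the block). The 5 markers that passed there were 1 higher and 1 lower of the stem and progenitor markers (the same counts with the block), 1 lower of the neutrophil markers (2 with the block) and 2 lower of the monocyte and macrophage markers (4 with the block). Lymphoid markers stayed at 5.07 to 6.35 with no call among 7 (limma, 2 at an unadjusted p under 0.05, both between R396Q and wild type, of which Il7r passed with the block, lower with R396Q), and Cd3e was the only 1 of these 7 below the lower quartile on all arrays. Their part in the changes of the mitotic genes was not tested.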

How the data were processed

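RNA of 9 samples was hybridized to 1 array each, 3 per group. The deposited table holds log2 values per transcript cluster, which the authors summarized by RMA with the software Affymetrix Expression Console, as stated in the submitters' processing notes and per the labels. Cluster identifiers are of a type used on later arrays than the Mouse Exon 1.0 ST that the labels give. All 9 columns were used as deposited. Of 21072 clusters, 18992 carried 1 symbol in the array annotation, 1390 several and 690 none, and the gene identifiers of 18236 were matched to RefSeq, which updated 418 symbols. Tied values were kept, and 4412 clusters held fewer than 6 distinct values.

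Tests used limma 3.58.1 (R 4.3.3) on every cluster (1 mean per group, 6 residual and 0.956 prior degrees of freedom, 2-sided, Benjamini-Hochberg over all clusters within a comparison, threshold 0.05), after the code was tested on simulated data. The main fit has no block. Same-numbered arrays of different groups had correlated deviations from their group means (r of 0.451 to 0.693 for 9 pairs), so the replicate number pairs them. The 18 pairs of different numbers had r of -0.537 to -0.0900. Deviations from a group mean cancel out within the group, so the r of different numbers is tied to that of same numbers and is not independent of it. The labels do not say whether samples came from separate mice or cultures, so p measures the spread between these samples, which may be technical, and the number of arrays limits the precision.

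The 40 genes and all other lists were chosen with earlier results of these data known. All 40 are named, with values on every array for those past the test with or without the block, and from the other lists up to 4 called genes per role. A set of genes is described by its counts and median beside all clusters. Motifs were searched on both strands of RefSeq promoters. Alternatives were the block, fits restricted to the groups compared, the trend and robust options of limma, array weights, median subtraction, quantile normalization, dropping the dimmest 30% or 50% of clusters or those with fewer than 6 distinct values, averaging a symbol's clusters, and omitting each array. The block without each replicate number was added after seeing the data.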

Additional observations from a re-analysis of the deposited data

How the results depend on the processing

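Without the block, 6 of the 39 genes passed for wild type against empty vector, 0 for R396Q against empty vector and 1 for R396Q against wild type, and 16, 2 and 5, in this order, with the replicate block. Of the other mitotic genes 6, 0 and 5 passed, and 14, 2 and 14 with the block. With only the groups compared, 15 of 23 calls of named genes were lost (adjusted p of 0.051 to 0.158) and 8 kept, those of Bub1, Ckap2l (both), Top2a, Stag1, Tyms between R396Q and wild type, and E2f8 and Cdkn1a with wild type, and 3 of the 39 and 1 of the others passed with wild type, and 1 of the others between R396Q and wild type. The others had 10 calls with wild type without the dimmest 50% of clusters, and between R396Q and wild type 2 with trend and robust options, 8 after median subtraction and 3 after quantile normalization. The median of the 39 genes was 0.13 after quantile normalization for R396Q with empty vector, and 0.042 after median subtraction (which moved the median of all clusters from 0 to 0.05) and -0.055 after quantile normalization for R396Q with wild type. Leaving out 1 array gave 3 to 8, 0 to 2 and 1 to 2 calls among the 39, medians of 0.07 to 0.20, 0.10 to 0.24 and -0.029 to 0.030 (-0.011 with all arrays), and 3 to 6, 0 to 0 and 0 to 4 calls among the others. The block with 1 replicate number left out, added after seeing the data, gave 1 to 7, 0 to 0 and 0 to 1 calls among the 39 (2 without number 1, both lower, 7 without number 2 and 1 without number 3) and 2 to 6, 0 to 0 and 0 to 3 among the others. It keeps 2 arrays per group and fewer degrees of freedom. Of the 22 settings beside the main one, none reversed the direction of a called gene. Calls of Ckap2l, Top2a and Bub1 passed under all of the single-array omissions and the 10 settings that keep all arrays. With the block and number 1 left out, the calls of Ckap2l and Top2a as higher with wild type than with empty vector were lost. The causes of the other differences were not tested. With 3 arrays per group, the interval of a change reached a median of 0.38 log2 units to each side among the 39 genes (0.20 with the block). Smaller changes passed in genes with a narrower interval, such as Top2a and Smc2 with wild type, and could be missed in the others.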
